A study of Mus musculus with 28 samples.

Results

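Chondrocyte and osteoblast cultures of O9-1 cells kept at 21% O2 were compared here by RNA sequencing, with 4 libraries of each, chosen by their labels: 8 of the 28 libraries in the study. O9-1 is a single mouse line of cranial neural crest cells, which in the embryo form much of the skeleton and connective tissue of the face. Chondrocyte cultures spent 3 days in the osteoblast medium and then 7 days as micromasses, dense spots of cells, on matrigel in alpha-MEM with 5% fetal calf serum, insulin-transferrin-selenium, 0.1 µM dexamethasone, 10 ng/ml TGF-beta3 and 50 ng/ml BMP-2. Osteoblast cultures spent 10 days in alpha-MEM with 10% fetal calf serum, 10 mM beta-glycerophosphate, 0.1 µM dexamethasone and 100 ng/ml BMP-2. Dexamethasone, BMP-2 and antibiotics were thus common to both, as were the first 3 days of medium. Dense culture, matrigel, serum, insulin-transferrin-selenium, TGF-beta3, the BMP-2 dose and beta-glycerophosphate all differed between the groups at once, and their effects cannot be told apart. Nothing in the labels says that replicates were separate cultures, so p-values measure the spread between these libraries, which may be technical. The study also kept the same cultures at 0.5% O2, with 3 libraries each, and these 6 libraries were used to ask in which genes the difference was seen again.

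Chondrocytes and osteoblasts of the face arise from shared mesenchymal precursors. SOX9, helped by SOX5 and SOX6, drives the cartilage matrix of type II collagen and aggrecan, whereas RUNX2 and then SP7 (osterix) drive the bone matrix of type I collagen and the proteins that take up mineral. Cartilage cells that mature become hypertrophic, and then make type X collagen together with bone sialoprotein (Ibsp), alkaline phosphatase (Alpl) and other genes that are also classical markers of osteoblasts, so the marker sets of late cartilage and bone overlap.

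Sequencing depth was similar, with 25998284 to 32378123 counts in chondrocyte libraries and 23357645 to 27748241 in osteoblast libraries. The 10 most abundant genes took 14.7% to 15.9% of counts in chondrocyte libraries and 8.82% to 9.65% in osteoblast libraries, and mitochondrially encoded genes took 0.649% to 0.776% and 0.955% to 1.36%. On the 500 most variable genes, the first principal component held 93.3% of the variance and separated the groups, with chondrocyte libraries at 43.8 to 52.4 and osteoblast libraries at -55.5 to -32.9. Osteoblast replicate 4 stood apart from the other osteoblast libraries: it lay at -32.9 where replicates 1 to 3 lay at -55.5 to -54.0, and alone at 24.5 on the second component (3.53% of the variance). Results that rest on it are therefore given with and without it.

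Gene levels are CPM, counts per 1000000 counts, on library sizes scaled by TMM (the trimmed mean of M-values), listed in the order of replicates 1 to 4. Differences are log2 fold changes of chondrocyte over osteoblast with their standard errors, from edgeR's quasi-likelihood test with Benjamini-Hochberg adjustment over all 14319 genes tested, and a gene is called higher or lower where the adjusted p is under 0.05. By this rule 8546 genes were called (59.7% of those tested), 4098 higher in chondrocyte cultures (28.6%) and 4448 lower (31.1%). Of these, 3378 genes (23.6%) also differed by at least 1 on the log2 scale, 1551 higher and 1827 lower. CPM values of the groups did not overlap for 7834 of the tested genes (54.7%). With most genes called, a call for a single gene says little by itself, so the size of its difference is given, and counts over gene lists are to be read against these background shares. Scaling to total counts instead of TMM moved the median log2 fold change of all genes from -0.03 to -0.19 and the share of calls that were higher in chondrocyte cultures from 48.0% to 34.3% (2993 higher, 5733 lower). Under that scaling 20.9% of all genes were higher and 40% lower, the differences of Id1 and Hspa5, which were not called, became -0.05 and -0.07, no called gene named here changed sign, and Fasn and Pcna were no longer called.

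Without osteoblast replicate 4, 9736 of 14550 genes were called (66.9%), 32.9% higher and 34% lower. They included 8366 of the 8546 genes called with all 8 libraries, in the same direction, and none in the opposite direction. A further 1230 genes tested in both were called only without it, 29 of them with the opposite sign. Osteoblast replicates 1 to 3 were closer to each other than chondrocyte libraries were, so p-values without replicate 4 rest on a narrower spread in that group.

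**Figure D1:**
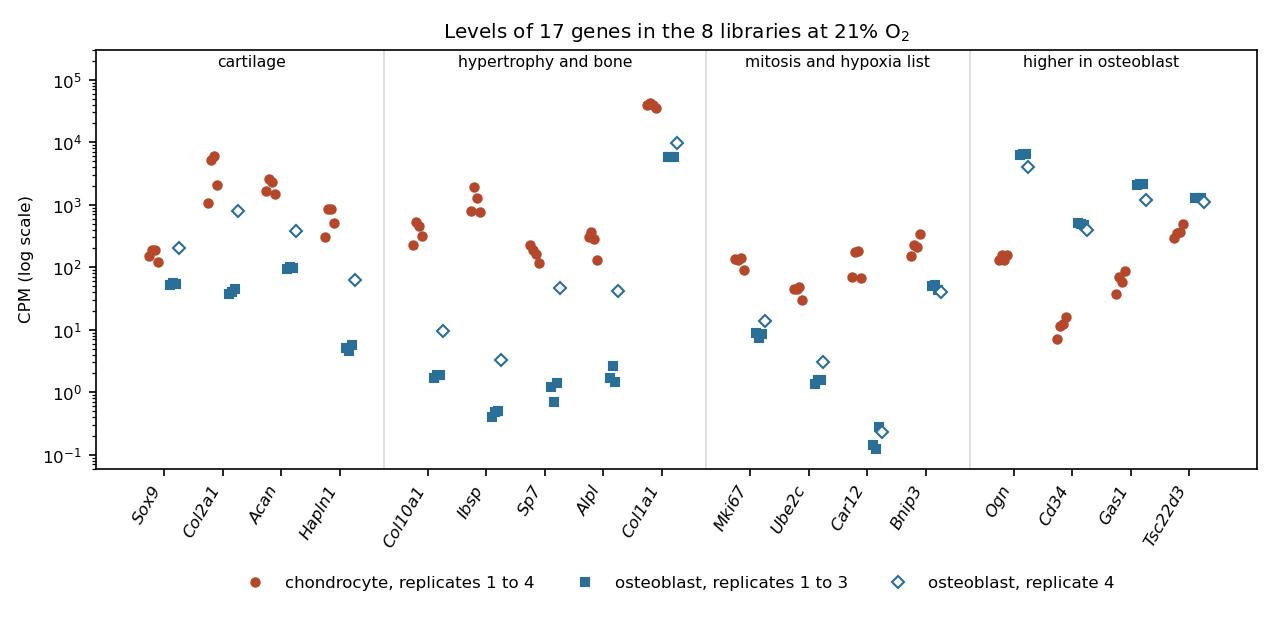
CPM (log scale) of 17 genes in each of the 8 libraries: circles are chondrocyte replicates 1 to 4, squares osteoblast replicates 1 to 3 and open diamonds osteoblast replicate 4. Chondrocyte and osteoblast libraries do not overlap except for Sox9, where osteoblast replicate 4 (201 CPM) lies above every chondrocyte library, and for Col2a1, Hapln1, Sp7 and Alpl it lies between the groups.

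The cartilage matrix list held 24 genes, of which 15 had enough counts to be tested. Matn1, Cnmd, Snorc, Chad, Epyc, Ucma, Cilp, Scrg1 and Mia had too few counts for a test, in chondrocyte cultures as well. Chondrocyte cultures had more transcript of 11 of them and less of 1, against 28.6% and 31.1% of all genes, with a median log2 fold change of 3.16 against -0.03 over all genes tested. In bulk RNA, fewer cells of a type and less RNA per cell cannot be told apart, here and in all that follows. Aggrecan (Acan, ENSMUSG00000030607, chr7:79053483-79115099), the large proteoglycan that holds water in cartilage, was at 1649, 2596, 2319 and 1466 CPM in chondrocyte cultures and at 92.8, 102, 98.5 and 385 CPM in osteoblast cultures. Its groups did not overlap, with osteoblast replicate 4 well above replicates 1 to 3, and the difference was 3.56 ± 0.53 (SE, adjusted p = 0.00049). Hapln1, the link protein that fastens aggrecan to hyaluronan, was higher by 5.00 ± 1.04 (adjusted p = 0.0037), and Fmod (fibromodulin), a small proteoglycan bound to collagen fibrils, by 3.87 ± 0.66 (adjusted p = 0.0011). Without osteoblast replicate 4 these differences were 4.36 for Acan, 6.94 for Hapln1 and 4.99 for Fmod. Comp, a pentameric protein of the territorial matrix, was at 25.0, 88.2, 72.6 and 25.5 CPM against 0.859 to 2.33 CPM, a difference of 5.27 ± 0.57 (adjusted p = 7.7e-05).

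Type II collagen (Col2a1, ENSMUSG00000022483, chr15:97975602-98004695), the defining fibril of cartilage, was at 1072, 5209, 5962 and 2077 CPM in chondrocyte cultures and at 36.8, 39.5, 45.3 and 807 CPM in osteoblast cultures. Chondrocyte replicates 2 and 3 were far above replicates 1 and 4, and osteoblast replicate 4 lay close below chondrocyte replicate 1. With all 8 libraries the difference was 3.95 ± 1.27 (adjusted p = 0.028), and without osteoblast replicate 4 it was 6.46 (adjusted p = 0.0011). The call with 8 libraries was lost on leaving out chondrocyte replicate 3, osteoblast replicate 2 or osteoblast replicate 3 (adjusted p = 0.0552, 0.0534 and 0.0563). Col11a2, a chain of the type XI collagen that nucleates cartilage fibrils, was likewise higher in chondrocyte replicates 2 and 3 than in 1 and 4, with 70.8, 340, 333 and 67.0 CPM, against 3.39 to 36.4 CPM in osteoblast cultures (4.03 ± 1.01, adjusted p = 0.0094, and 5.56 without osteoblast replicate 4). Its partner chain Col11a1 was even across replicates, at 4457 to 6132 CPM against 1509 to 1707 CPM (1.75 ± 0.11, adjusted p = 1.8e-06).

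The chains of type IX collagen, which decorates cartilage fibrils, depended on osteoblast replicate 4. Col9a1 was at 10.4, 56.7, 67.7 and 10.2 CPM in chondrocyte cultures and at 3.00, 4.74, 5.49 and 110 CPM in osteoblast cultures, so that replicate 4 was above every chondrocyte library. Its difference was 0.22 ± 1.24 (adjusted p = 0.89) with that library and 3.03 (adjusted p = 0.039) without it, and for Col9a2 it was 1.66 ± 1.04 (adjusted p = 0.2) and 3.57 (adjusted p = 0.018). The 1 lower gene of the list was Cytl1, a small secreted protein of cartilage, at 3.11 to 4.00 CPM in osteoblast cultures and at 0 CPM in 3 chondrocyte libraries and 0.0361 CPM in the other. Without osteoblast replicate 4, 13 genes of the list were higher and 1 lower, against 32.9% and 34% of all genes, with a median of 4.36. Summed over the list, chondrocyte libraries held 9422 to 17519.5 CPM, osteoblast replicates 1 to 3 held 1900 to 1939 CPM and osteoblast replicate 4 held 3321 CPM. These sums rest on few abundant genes, and Col11a1 alone made up most of the sum in osteoblast replicates 1 to 3.

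**Figure D2:**
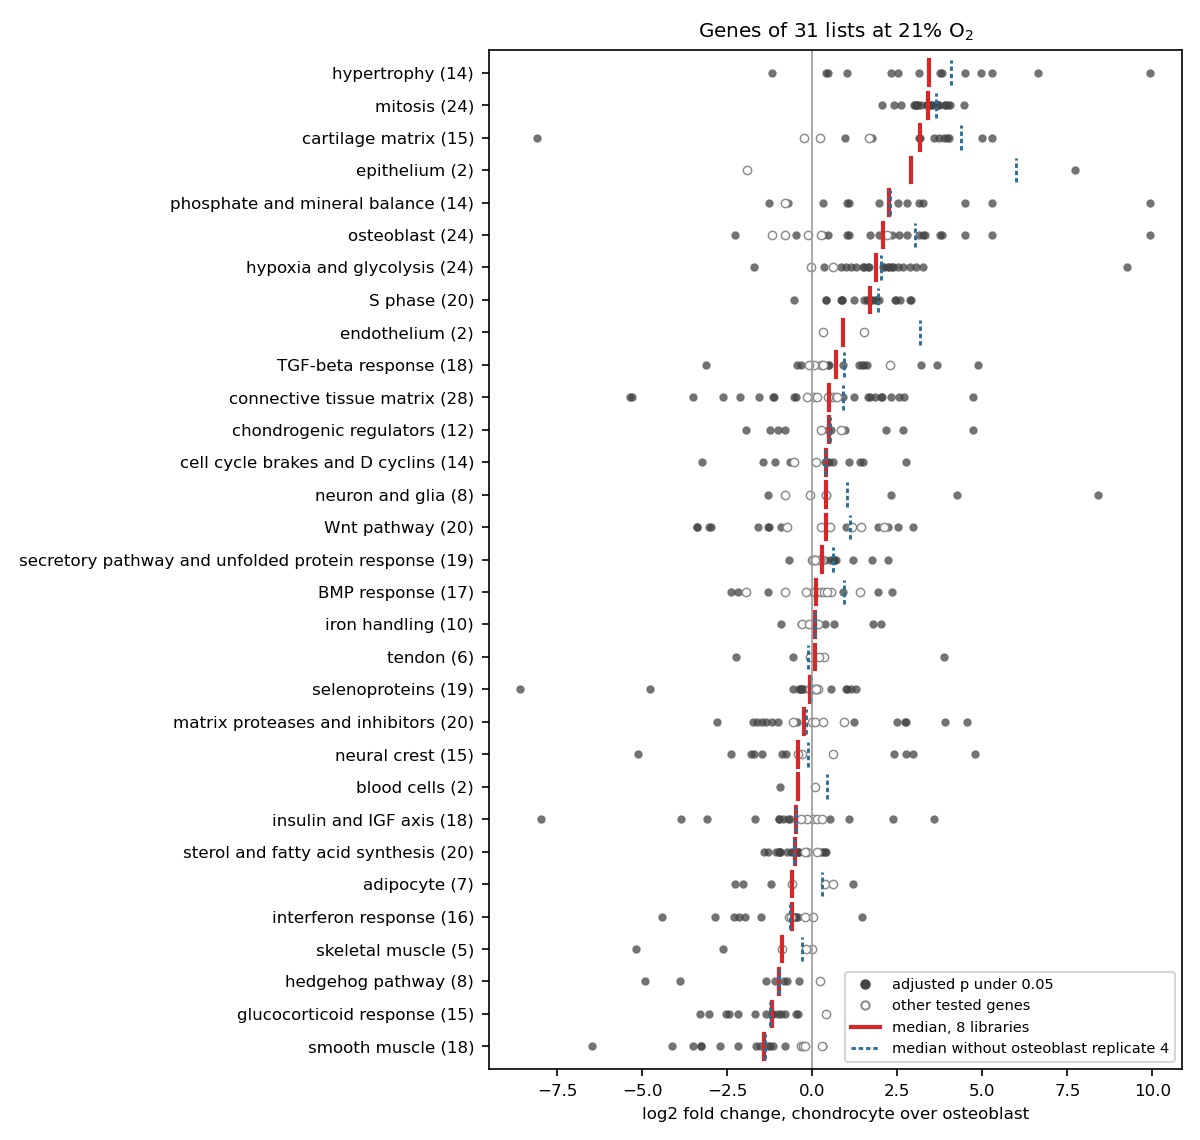
Log2 fold change of chondrocyte over osteoblast cultures for each tested gene of the 31 gene lists, with the number tested in brackets: filled circles have an adjusted p under 0.05, the solid bar is the list's median with all 8 libraries and the dotted bar its median without osteoblast replicate 4. Hypertrophy, mitosis and cartilage matrix have the highest medians among lists with over 2 tested genes (3.45, 3.39 and 3.16) with all 8 libraries, cartilage matrix moves to the first place of these without osteoblast replicate 4 (4.36), and smooth muscle has the lowest (-1.41).

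Of 12 tested transcription factors and other regulators of cartilage, 6 were higher and 4 lower, against 28.6% and 31.1% of all genes, with a median of 0.50. Sox9 was at 151, 191, 186 and 122 CPM in chondrocyte cultures and at 52.9, 56.8, 53.6 and 201 CPM in osteoblast cultures. Osteoblast replicate 4 exceeded all chondrocyte libraries, and the difference was 0.83 ± 0.46 (adjusted p = 0.15) with it and 1.58 (adjusted p = 2.8e-05) without it. Sox5 was higher by 0.54 ± 0.13 and Sox6 by 2.68 ± 0.49 (adjusted p = 0.0053 and 0.0011), Sox6 at no more than 3.07 CPM. Wwp2, a ubiquitin ligase gene whose intron hosts a cartilage microRNA, was higher by 2.17 ± 0.21. Nkx3-2, a repressor of chondrocyte maturation, was at 0.560 to 2.13 CPM in chondrocyte cultures and was listed at 0 in osteoblast replicates 1 to 3. The lower genes included Arid5b, a chromatin regulator that works with SOX9, at 55.5 to 62.8 CPM against 186 to 247 CPM (-1.95 ± 0.10), and Gdf5, the BMP family ligand of developing joints, at 0.924 to 2.93 CPM against 2.78 to 5.83 CPM (-1.25 ± 0.35).

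Of the 14 hypertrophy genes tested, 13 were higher in chondrocyte cultures and 1 lower, against 28.6% and 31.1% of all genes, with a median of 3.45 (4.06 without osteoblast replicate 4). Bone sialoprotein (Ibsp, ENSMUSG00000029306, chr5:104299171-104311469), an acidic matrix protein that binds calcium, was at 791, 1951, 1299 and 753 CPM in chondrocyte cultures and at 0.398, 0.491, 0.493 and 3.33 CPM in osteoblast cultures. Every chondrocyte library was more than 2 orders of magnitude above every osteoblast library, and the fitted difference of 9.94 ± 0.79 (adjusted p = 1.4e-05) was the largest positive one under the rule used to name genes. Type X collagen (Col10a1, ENSMUSG00000039462, chr10:34389981-34397085), made by hypertrophic chondrocytes, was at 229, 532, 457 and 317 CPM against 1.70, 1.88, 1.90 and 9.73 CPM (6.63 ± 0.68, adjusted p = 6.3e-05). Panx3, a channel of hypertrophic cartilage and bone, was at 13.0 to 46.2 CPM against 0.0361 to 3.23 CPM. Pth1r, the receptor for parathyroid hormone and its related peptide, was higher by 3.83 ± 0.62 and Runx3 by 2.31 ± 0.29. On leaving out osteoblast replicate 4 the differences were 11.33 for Ibsp, 7.71 for Col10a1 and 4.82 for Pth1r. The 1 lower gene was Mmp13, the collagenase of terminal hypertrophic cartilage and bone, at 2.29 to 6.17 CPM in chondrocyte cultures and 9.20 to 10.4 CPM in osteoblast cultures (-1.19 ± 0.25, adjusted p = 0.0025). Ihh, the hedgehog ligand of prehypertrophic cartilage, did not exceed 0.211 CPM in any library and was not tested.

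The osteoblast markers went against the labels. Of 24 tested genes, 17 were higher in the cultures labelled chondrocyte and 2 in those labelled osteoblast, against 28.6% and 31.1% of all genes, with a median of 2.08. Under scaling to total counts the split was 16 and 4, against 20.9% and 40% of all genes. Without osteoblast replicate 4 it was 20 and 3, against 32.9% and 34%. The groups are therefore named here by their medium and label, not as cell types. Sp7 (ENSMUSG00000060284), the transcription factor required for osteoblasts, was at 226, 189, 165 and 115 CPM in chondrocyte cultures and at 1.19, 0.695, 1.41 and 47.2 CPM in osteoblast cultures. Osteoblast replicate 4 was some 33.5 times above the highest of replicates 1 to 3, and yet below every chondrocyte library. The difference was 3.77 ± 1.26 (adjusted p = 0.032) and 7.28 (adjusted p = 3.3e-06) without replicate 4. With 8 libraries the call was lost on leaving out any 1 of chondrocyte replicates 1 to 3 or osteoblast replicates 1 to 3 (adjusted p from 0.0527 to 0.061).

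Alpl, the enzyme that frees phosphate for mineral, was at 300, 369, 285 and 129 CPM in chondrocyte cultures and at 1.66, 2.62, 1.44 and 41.6 CPM in osteoblast cultures. The groups did not overlap, with a difference of 4.50 ± 1.16 (adjusted p = 0.01) and 7.16 without osteoblast replicate 4. Dmp1, an acidic protein of mineralising bone matrix, was at 38.8 to 52.4 CPM against 0.467 to 2.06 CPM (5.30 ± 0.32), and here osteoblast replicate 4 was the lowest library. Dlx5, a homeobox factor upstream of Sp7, was higher by 2.34 ± 0.69 (3.73 without replicate 4), a call lost with no filter on low counts (adjusted p = 0.0639). Tnfsf11, which encodes the osteoclast-forming ligand RANKL, was at 1.53 to 3.09 CPM against 0.0352 to 0.6 CPM (3.32 ± 0.63, and 4.63 without replicate 4), and its decoy receptor Tnfrsf11b differed by -0.14 ± 0.11 (adjusted p = 0.32). Runx2 differed little, at 82.1 to 95.3 CPM against 59.5 to 71.7 CPM (0.46 ± 0.08, adjusted p = 0.0011). Spp1 (osteopontin) was at 1424, 2215, 2271 and 2585 CPM against 1004 to 1131 CPM (1.02 ± 0.16). Omd (osteomodulin), a small proteoglycan of bone, was lower in chondrocyte cultures, at 51.5 to 109 CPM against 275 to 452 CPM (-2.26 ± 0.28, adjusted p = 0.00014). Osteocalcin (Bglap), the late osteoblast hormone, was below 1 CPM in every library, and since its near-identical neighbours share its sequence its counts are uncertain.

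Of 14 tested mineral balance genes, 11 were higher in chondrocyte cultures and 2 lower, against 28.6% and 31.1% of all genes, with a median of 2.24. Of these 14, 8 (Alpl, Ibsp, Spp1, Phospho1, Dmp1, Mepe, Phex and Smpd3) are also on the osteoblast list, and the first 5 on the hypertrophy list too, so the counts of the 3 lists are not separate. Enpp1, which makes the mineral inhibitor pyrophosphate, was at 26.8 to 46.6 CPM against 5.71 to 7.68 CPM (2.53 ± 0.18). The sodium-phosphate transporters went opposite ways: Slc20a1 was at 98.4 to 122 CPM against 13.7 to 18.9 CPM (2.77 ± 0.12), and Slc20a2 at 29.6 to 36.7 CPM against 59.8 to 88.2 CPM (-1.26 ± 0.13). Mgp, an inhibitor of calcification, was lower by -0.70 ± 0.09.

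The promoters of Ibsp and Col10a1 are shown because these genes had the largest differences of the hypertrophy list. Each is the 250 bases before the annotated start (RefSeq, GRCm38.p6), written 5′ to 3′ on the gene's strand, at chr5:104299037-104299286 (plus strand) and chr10:34389731-34389980 (plus strand). The letters TGTGGT, the core recognised by RUNX factors, were searched on both strands and would be in capitals, but neither window holds them. RefSeq and the GENCODE annotation used for positions elsewhere place some starts differently: 116 bases of the Ibsp window lie inside the gene as GENCODE has it, and 9 to 31 bases of the windows of Ube2c, Cdc20, Cdk1 and Bnip3 printed further on.
Ibsp: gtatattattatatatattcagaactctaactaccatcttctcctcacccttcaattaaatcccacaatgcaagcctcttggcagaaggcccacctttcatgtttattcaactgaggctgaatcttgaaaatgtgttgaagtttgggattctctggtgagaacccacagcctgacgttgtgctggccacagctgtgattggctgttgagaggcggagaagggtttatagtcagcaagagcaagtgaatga
Col10a1: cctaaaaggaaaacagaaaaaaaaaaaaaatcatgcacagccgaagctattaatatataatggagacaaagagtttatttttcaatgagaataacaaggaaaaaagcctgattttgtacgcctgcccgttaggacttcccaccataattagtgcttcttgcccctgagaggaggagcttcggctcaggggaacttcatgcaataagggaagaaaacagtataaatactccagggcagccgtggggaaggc
Of the 22 promoters of 13 hypertrophy genes in the RefSeq table, 5 (22.7%) held TGTGGT, against 14% of all 32851 promoters in it. A match or its absence describes these letters in this window and says nothing of binding.

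Of 28 tested connective tissue matrix genes, 11 were higher in chondrocyte cultures and 10 lower, against 28.6% and 31.1% of all genes. Without osteoblast replicate 4 the counts were 15 and 10, against 32.9% and 34% of all genes. The chains of type I collagen, the fibril of bone and dense connective tissue, were higher in chondrocyte cultures. Col1a1 (ENSMUSG00000001506, chr11:94936224-94953042) was at 39220, 43081, 39967 and 35898 CPM in chondrocyte cultures and at 5853, 5881, 5878 and 9656 CPM in osteoblast cultures (2.54 ± 0.18, adjusted p = 3.2e-06), and Col1a2 was higher by 1.69 ± 0.10. Per kilobase of exon, Col1a1 stood at 6025 ± 449 CPM (SD, n = 4) in chondrocyte cultures, far above Col2a1 at 387 ± 257 and Acan at 269 ± 71.9 CPM per kilobase in the same libraries. In osteoblast cultures the same scale gave Col1a1 1039 ± 288, Col2a1 25.1 ± 41.5 and Acan 22.7 ± 19.3. On this scale Col1a1 stood above Col2a1 in both groups.

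Col5a1 and Col5a2, chains of the type V collagen that limits the width of type I fibrils, were higher by 2.31 ± 0.09 and 2.04 ± 0.09, Col3a1 by 1.24 ± 0.09 and fibronectin (Fn1) by 1.64 ± 0.13. Fbln2 (fibulin 2) was at 2493 to 3201 CPM against 375 to 665 CPM (2.70 ± 0.20). In the other direction, Ogn (osteoglycin, ENSMUSG00000021390, chr13:49608046-49624501), a small leucine-rich proteoglycan, was at 132, 155, 129 and 160 CPM in chondrocyte cultures and at 6305, 6463, 6534 and 4073 CPM in osteoblast cultures (-5.35 ± 0.19, adjusted p = 6.8e-08). Per kilobase it stood at 2277 ± 461 CPM in osteoblast cultures, above Col1a1 there. Its relative Aspn (asporin) was lower by -2.62 ± 0.17. Cd34, a surface sialomucin of mesenchymal progenitors and fibroblasts, was at 7.23 to 16.1 CPM against 396 to 510 CPM (-5.29 ± 0.24). Postn (periostin), a matrix protein of periosteum and ligament, was at 11027 to 13623 CPM against 19877, 19977, 18693 and 12707 CPM, with osteoblast replicate 4 inside the chondrocyte range. Its difference of -0.53 ± 0.15 (adjusted p = 0.014) was not called without chondrocyte replicate 2 (adjusted p = 0.0518). Elastin (Eln) and decorin (Dcn) differed by 0.45 ± 0.24 and 0.63 ± 0.30 (adjusted p = 0.14 and 0.11).

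Among abundant genes with a log2 difference of at least 2, the leading 8 higher in chondrocyte cultures were all matrix or cell surface genes: Col1a1, Col5a1, Col5a2, Col2a1, Fbln2, Acan, Fmod and Sdc3. Sdc3, the heparan sulfate proteoglycan syndecan 3 of the cartilage surface and neurons, was at 1424 to 1794 CPM against 91.4, 102, 101 and 306 CPM (3.49 ± 0.42, and 4.10 without osteoblast replicate 4). The leading 8 lower in chondrocyte cultures were Ogn, Aspn, Gas1, Penk, Ptn, Pdgfra, Itga8 and Adgra2, at -5.35 to -2.18. Penk, the precursor of enkephalin peptides, was at 47.5 to 70.7 CPM against 1445, 1478, 1445 and 738 CPM (-4.32 ± 0.26). Pdgfra, the platelet-derived growth factor receptor of mesenchymal progenitors, was at 84.3 to 112 CPM against 723 to 1290 CPM (-3.45 ± 0.20), and Ptn, the heparin-binding growth factor pleiotrophin, at 58.0 to 93.5 CPM against 749 to 1339 CPM. In all of these 8 genes osteoblast replicate 4 was the lowest osteoblast library, and still above the chondrocyte range.

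Of the matrix proteases and their inhibitors, 6 of 20 tested genes were higher and 9 lower, against 28.6% and 31.1% of all genes. Adamts12, a metalloprotease that cleaves COMP, was at 416 to 502 CPM against 12.9 to 30.5 CPM (4.55 ± 0.26), and Htra3, a secreted serine protease, at 48.3 to 66.2 CPM against 1.93 to 4.88 CPM (3.89 ± 0.26). The aggrecanases differed in direction: Adamts4 was higher by 2.5 ± 0.14, and Adamts5 was at 10.6 to 14.7 CPM against 52.6, 52.3, 52.1 and 11.4 CPM (-1.74 ± 0.42). Osteoblast replicate 4 had the Adamts5 level of chondrocyte cultures. The inhibitors also parted, Timp1 higher by 2.77 ± 0.33 and Timp2 lower by -1.02 ± 0.11.

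Genes of the factors added to the media were examined next. BMP-2 was in both media, at 100 ng/ml for osteoblast cultures and 50 ng/ml for the micromasses. Of 17 tested BMP response genes, 3 were higher, 3 lower and 11 not called with all 8 libraries, against 28.6% and 31.1% of all genes, whereas 13 were higher and 3 lower without osteoblast replicate 4, against 32.9% and 34%. Id1, an immediate target of BMP-activated SMADs, was at 54.8 to 66.1 CPM against 54.3, 48.1, 47.8 and 72.2 CPM, a difference of 0.12 ± 0.13 (adjusted p = 0.47) and of 0.27 without replicate 4. Id3 was at 356 to 384 CPM against 213, 193, 203 and 395 CPM, a difference of 0.55 ± 0.21 (adjusted p = 0.05) and of 0.86 without replicate 4. Nog (noggin), a secreted BMP antagonist that BMPs induce, was at 2.58 to 6.76 CPM in chondrocyte cultures and at 1.01, 1.35, 1.83 and 78.2 CPM in osteoblast cultures. The difference for Nog was -1.96 ± 1.38 (adjusted p = 0.25) with replicate 4 and 1.92 (adjusted p = 0.00058) without it. Grem1 (gremlin), another BMP antagonist, was lower, at 112 to 181 CPM against 565 to 949 CPM (-2.18 ± 0.21), as was the homeobox gene Msx1 (-2.40 ± 0.10). In osteoblast replicate 4 the summed level of the BMP list was 2767 CPM, against 1311 to 1395 CPM in the other 7 libraries.

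TGF-beta3 was in the chondrogenic medium alone. Of 18 tested TGF-beta response genes, 10 were higher in chondrocyte cultures and 3 lower, against 28.6% and 31.1% of all genes, with a median of 0.69. Under total count scaling the counts were 8 and 3, against 20.9% and 40% of all genes. Itga11, a collagen-binding integrin subunit, was at 574, 691, 708 and 629 CPM against 19.4, 18.1, 15.7 and 36.2 CPM (4.86 ± 0.28, adjusted p = 1.6e-06). The groups did not overlap, and Ccn2 (connective tissue growth factor) was higher by 1.39 ± 0.18. Tgfbi was at 403 to 626 CPM against 27.5, 28.7, 31.3 and 334 CPM, and was not called with 8 libraries (2.29 ± 0.89, adjusted p = 0.055) but was without replicate 4 (4.15, adjusted p = 1.4e-07). Tgfbr3 (betaglycan), a co-receptor that presents TGF-beta, was lower by -3.14 ± 0.42.

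Insulin, transferrin and selenium were also in the chondrogenic supplement alone. Of 18 genes of the insulin and IGF axis, 4 were higher and 9 lower, against 28.6% and 31.1% of all genes, the insulin receptor (Insr) lower at 50.3 to 62.3 CPM against 116, 116, 119 and 58.8 CPM (-0.85 ± 0.20). Igfbp3, an IGF binding protein, was at 7.34 to 9.14 CPM against 111 to 120 CPM (-3.86 ± 0.09, adjusted p = 9.1e-09). Igfbp5 was at 83.8 to 116 CPM against 0.289, 0.777, 1.02 and 31.8 CPM, a difference of 3.57 ± 1.21 (adjusted p = 0.034) and of 7.19 without osteoblast replicate 4. With 8 libraries the Igfbp5 call was lost on leaving out any 1 of the other 7 (adjusted p from 0.0501 to 0.0667). Igf2, the fetal growth factor, had 127 counts in osteoblast cultures and none in chondrocyte cultures, which is at least 42.2-fold lower against a floor of 3 counts over the group, and its level did not exceed 2.30 CPM. Without osteoblast replicate 4, which held the most, it is at least 26.4-fold lower from 58 counts. Of 10 iron genes 4 were higher and 2 lower, against 28.6% and 31.1% of all genes (5 and 4 without osteoblast replicate 4, against 32.9% and 34%). The transferrin receptor Tfrc was higher (1.80 ± 0.13) and the ferritin heavy chain Fth1 lower (-0.91 ± 0.13), at 575 to 762 CPM against 1018 to 1438 CPM. Of 19 selenoprotein genes 5 were higher and 8 lower, against 28.6% and 31.1% of all genes, with Txnrd1 (thioredoxin reductase) higher by 1.28 ± 0.12 and Selenop, the selenium carrier of plasma, at 0.0412 to 1.49 CPM against 6.73 to 23.0 CPM.

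Dexamethasone was at 0.1 µM in both media. Of the glucocorticoid response genes, 14 of 15 tested were lower in chondrocyte cultures and none higher, against 31.1% lower among all genes, with a median of -1.19. Tsc22d3 (GILZ, ENSMUSG00000031431), a leucine zipper protein induced by glucocorticoids, was at 299, 359, 370 and 491 CPM in chondrocyte cultures and at 1272, 1282, 1263 and 1098 CPM in osteoblast cultures (-1.69 ± 0.14, adjusted p = 8.6e-06). Zbtb16 was lower by -2.18 ± 0.23 and Errfi1, a feedback inhibitor of the EGF receptor, by -3.03 ± 0.29. The gene not called was Ddit4 (0.40 ± 0.22, adjusted p = 0.14). Without osteoblast replicate 4, 12 of 16 tested were lower and none higher, against 34% and 32.9% of all genes.

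Of the Wnt pathway genes, 6 of 20 were higher and 8 lower, against 28.6% and 31.1% of all genes. Without osteoblast replicate 4, 12 were higher and 8 lower, against 32.9% and 34%. The secreted inhibitors differed in direction: Sfrp1 was at 13.6 to 22.2 CPM against 154 to 199 CPM (-3.37 ± 0.17) and Dkk3 was lower by -3.03 ± 0.34, but Frzb, which cartilage makes, was at 42.2 to 139 CPM against 9.03 to 13.8 CPM (2.96 ± 0.36). Wif1 was at 34.8 to 72.0 CPM against 0.759, 1.02, 1.58 and 47.7 CPM, and was called only without osteoblast replicate 4 (5.63, against 2.12 ± 1.21 and adjusted p = 0.17 with it). Axin2, a target of beta-catenin, was at 0.577 to 1.72 CPM against 1.87 to 3.80 CPM (-1.31 ± 0.38, adjusted p = 0.014), a call lost in the fit with the replicate number as a block. Hedgehog pathway genes were lower in chondrocyte cultures in 7 of 8 tested cases and higher in none, against 31.1% and 28.6% of all genes, with a median of -0.97. Gas1 (ENSMUSG00000052957), a co-receptor, was at 37.5, 69.6, 57.6 and 88.1 CPM against 2073, 2185, 2170 and 1203 CPM (-4.92 ± 0.32, adjusted p = 3.3e-06), the co-receptor Boc was lower by -3.90 ± 0.29 and the signal transducer Smo by -0.74 ± 0.07. The gene not called was Gli3 (0.22 ± 0.13, adjusted p = 0.17).

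Genes of cell division were the most uniform of all lists. All 24 mitosis genes were tested and all 24 were higher in chondrocyte cultures, against 28.6% of all genes, by 2.04 to 4.47 on the log2 scale with a median of 3.39. All 24 remained higher without osteoblast replicate 4 and with total count scaling, against 32.9% and 20.9% of all genes. Mki67 (ENSMUSG00000031004, chr7:135689784-135716361), which encodes the Ki-67 protein of dividing cells, was at 138, 132, 143 and 89.0 CPM in chondrocyte cultures and at 8.82, 7.36, 8.42 and 14.1 CPM in osteoblast cultures. The groups were far apart, with chondrocyte replicate 4 the lowest of its group and osteoblast replicate 4 the highest of its own (3.69 ± 0.24, adjusted p = 2.8e-06). Ube2c, the ubiquitin-conjugating enzyme of the anaphase-promoting complex, gave the largest difference of the list (4.47 ± 0.26), Ccnb1 (cyclin B1) was higher by 4.06 ± 0.18 and Foxm1, the transcription factor of the mitotic program, by 2.04 ± 0.16. On a scale shared with the 4 libraries of proliferating O9-1 cells, Mki67 was at 291 to 401 CPM in the proliferating cells.

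Replication genes changed less: 19 of 20 S phase genes were higher and 1 lower, against 28.6% and 31.1% of all genes, with a median of 1.69. The replicative helicase subunit Mcm5 was at 31.9 to 52.2 CPM against 4.23, 4.38, 3.98 and 19.9 CPM (2.44 ± 0.54, and 3.41 without osteoblast replicate 4). The subunits of ribonucleotide reductase parted, Rrm2 higher by 2.90 ± 0.51 (3.74 without osteoblast replicate 4) and Rrm1, the lower gene of the list, at 96.9 to 137 CPM against 162 to 197 CPM (-0.54 ± 0.11). Pcna, the sliding clamp of DNA polymerase, was higher by only 0.41 ± 0.11. Among cell cycle brakes and D cyclins, 8 of 14 were higher and 4 lower, against 28.6% and 31.1% of all genes, and 5 and 5 under total count scaling, against 20.9% and 40%. The share of lower genes was thus near that of all genes. Cdkn1a (p21) was higher at 289 to 351 CPM against 100 to 124 CPM (1.49 ± 0.09). Cdkn1c (p57), a brake on the cell cycle that promotes the exit of chondrocytes from it, was lower at 9.94 to 14.7 CPM against 99.4 to 143 CPM (-3.23 ± 0.17), though the exons of Cdkn1c overlap a predicted gene on the other strand. Ccnd2 was at 132 to 158 CPM against 21.6 to 22.3 CPM (2.77 ± 0.07), and Ccnd1 differed by -0.53 ± 0.24 (adjusted p = 0.083).

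Since the mitosis genes moved together, their promoters were searched on both strands for TTTGAA, the cell cycle genes homology region (CHR) of late cell cycle promoters, and for CCAAT, the box bound by NF-Y. The RefSeq table matched 18 of the 24 genes, with 18 promoters of 250 bases. TTTGAA was in 7 of them (38.9%, against 16% of all 32851 promoters), CCAAT in 16 (88.9%, against 33.8%) and both in 7 (38.9%, against 5.55%). Neither motif contains the other, and a match is a description of the sequence only. Examples with both are shown (GRCm38.p6, 5′ to 3′ on the gene's strand, with both motifs and their reverse complements in capitals): Ube2c at chr2:164769679-164769928 (plus strand), Cdc20 at chr4:118437344-118437593 (minus strand), Kif11 at chr19:37376132-37376381 (plus strand) and Cdk1 at chr10:69352913-69353162 (minus strand).
Ube2c: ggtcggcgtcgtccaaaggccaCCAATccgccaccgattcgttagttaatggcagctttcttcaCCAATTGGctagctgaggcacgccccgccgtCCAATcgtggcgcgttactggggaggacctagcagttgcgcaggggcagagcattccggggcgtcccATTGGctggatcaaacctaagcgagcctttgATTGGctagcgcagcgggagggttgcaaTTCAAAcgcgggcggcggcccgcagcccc
Cdc20: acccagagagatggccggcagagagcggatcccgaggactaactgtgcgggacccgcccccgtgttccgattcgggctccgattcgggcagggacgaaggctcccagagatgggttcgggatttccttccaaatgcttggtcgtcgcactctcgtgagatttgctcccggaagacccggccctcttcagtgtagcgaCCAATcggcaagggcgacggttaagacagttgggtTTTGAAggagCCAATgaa
Kif11: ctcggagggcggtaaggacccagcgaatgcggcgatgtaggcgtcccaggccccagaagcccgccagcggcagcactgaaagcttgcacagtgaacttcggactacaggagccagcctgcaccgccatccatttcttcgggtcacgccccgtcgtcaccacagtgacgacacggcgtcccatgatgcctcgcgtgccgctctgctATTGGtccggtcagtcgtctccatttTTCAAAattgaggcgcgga
Cdk1: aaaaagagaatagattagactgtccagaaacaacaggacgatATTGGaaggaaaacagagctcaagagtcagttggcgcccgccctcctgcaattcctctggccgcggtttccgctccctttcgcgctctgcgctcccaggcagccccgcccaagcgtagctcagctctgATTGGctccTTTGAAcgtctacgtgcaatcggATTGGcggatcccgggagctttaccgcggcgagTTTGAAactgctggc
These 4 genes were higher in chondrocyte cultures by 4.47 ± 0.26, 3.49 ± 0.23 (Cdc20, an activator of the anaphase-promoting complex, whose exons overlap Elovl1), 3.38 ± 0.22 (Kif11, the spindle motor) and 2.40 ± 0.25 (Cdk1, the mitotic kinase). Kif11 and Cdc20 had neighbouring sizes of difference, within each other's standard error, and Cdk1 lay below both.

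At 21% O2, genes of hypoxia and glycolysis were higher in chondrocyte cultures in 21 of 24 cases, lower in 1 and not called in 2, against 28.6% and 31.1% of all genes, with a median of 1.87. Car12, a membrane carbonic anhydrase that hypoxia induces, was at 70.2, 176, 182 and 66.9 CPM in chondrocyte cultures and at 0.145, 0.123, 0.282 and 0.233 CPM in osteoblast cultures (9.25 ± 0.58, adjusted p = 3.2e-06). No osteoblast library, replicate 4 included, approached the chondrocyte range. Vegfa, the vascular growth factor, was at 222 to 236 CPM against 34.2 to 43.1 CPM (2.53 ± 0.08, adjusted p = 6.4e-08). Bnip3, a mitophagy receptor, was at 153, 230, 213 and 345 CPM against 40.2 to 51.3 CPM (2.35 ± 0.23). P4ha1, a subunit of the collagen prolyl hydroxylase, was higher by 2.22 ± 0.11, Hk2 (hexokinase 2) by 2.37 ± 0.11 and Ldha (lactate dehydrogenase) by 2.07 ± 0.24. Slc2a1, the glucose transporter GLUT1, was at 93.1, 154, 144 and 237 CPM against 77.7 to 92.7 CPM (0.86 ± 0.24, adjusted p = 0.013), a call lost without osteoblast replicate 4 (adjusted p = 0.0589). The lower gene was Egln3, a prolyl hydroxylase of HIF, at 65.0 to 134 CPM against 303 to 403 CPM (-1.72 ± 0.21), and Adm (adrenomedullin) differed by 0.61 ± 0.34 (adjusted p = 0.16).

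The core letters of the hypoxia response element, ACGTG or as an alternative GCGTG, were searched on both strands in the same way. They were in 27 of 33 promoters of 22 of the 24 genes (81.8%, against 38.6% of all promoters of that length). The promoters of Bnip3, at chr7:138909507-138909756 (minus strand), and of P4ha1, at chr10:59323046-59323295 (plus strand), are shown with these letters and their reverse complements in capitals. Bnip3 holds 5 matches, some of which overlap, and P4ha1 holds 3.
Bnip3: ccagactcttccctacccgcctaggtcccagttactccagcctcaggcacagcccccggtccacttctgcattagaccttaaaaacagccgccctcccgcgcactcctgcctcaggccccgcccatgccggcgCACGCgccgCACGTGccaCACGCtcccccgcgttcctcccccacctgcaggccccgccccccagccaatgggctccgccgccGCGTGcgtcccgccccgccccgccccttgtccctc
P4ha1: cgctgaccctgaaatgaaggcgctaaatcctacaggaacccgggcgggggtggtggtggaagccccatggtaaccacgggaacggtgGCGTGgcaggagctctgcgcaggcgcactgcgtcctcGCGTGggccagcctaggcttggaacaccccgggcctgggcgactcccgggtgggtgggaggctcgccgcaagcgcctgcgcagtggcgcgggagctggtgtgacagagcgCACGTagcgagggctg

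Lipid synthesis genes leaned the other way, with 13 of 20 sterol and fatty acid genes lower in chondrocyte cultures, 4 higher and a median of -0.49, against 31.1% lower and 28.6% higher of all genes (15 lower and 1 higher under total count scaling, against 40% and 20.9%). Insig1, the sterol-sensing retention protein, was at 38.7 to 60.6 CPM against 83.2 to 147 CPM (-1.42 ± 0.20). Fdft1 (squalene synthase) was lower by -1.31 ± 0.14, and its exons overlap Ctsb on the other strand. Fasn (fatty acid synthase) was higher by 0.33 ± 0.07. Of 19 tested genes of the secretory pathway and unfolded protein response, 11 were higher and 1 lower, against 28.6% and 31.1% of all genes. The counts were 18 and 1 without osteoblast replicate 4 (32.9% and 34% of all genes), and 7 and 1 under total count scaling (20.9% and 40%). Creb3l1, the membrane-bound factor that drives collagen secretion in bone, was higher by 2.24 ± 0.11 and Serpinh1, the collagen chaperone HSP47, by 1.19 ± 0.19. Hspa5, the chaperone BiP, was at 946 to 1133 CPM against 783, 757, 755 and 1470 CPM, with replicate 4 above all other libraries (0.09 ± 0.21, adjusted p = 0.74, and 0.39 without it). The lower gene was Dnajb9, an ER co-chaperone (-0.67 ± 0.06). Interferon response genes were lower in 11 of 16 cases and higher in 1, against 31.1% and 28.6% of all genes, with Bst2 (tetherin) at 5.10 to 7.36 CPM against 15.6 to 32.7 CPM (-2.15 ± 0.24). The higher gene, Ifi44, was at 2.77 to 9.78 CPM against 0.767 to 3.35 CPM (1.47 ± 0.47), and its call was lost on leaving out chondrocyte replicate 4 or osteoblast replicate 3.

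Of 18 tested smooth muscle genes, 13 were lower in chondrocyte cultures, 1 higher and 4 not called, against 31.1% lower among all genes, with a median of -1.41. Under total count scaling 15 were lower and none higher, against 40% and 20.9% of all genes. Myocd, the cardiac and smooth muscle coactivator, was at 0 to 0.112 CPM against 3.47 to 7.26 CPM. Mylk (myosin light chain kinase) was at 16.7 to 24.4 CPM against 153 to 275 CPM (-3.52 ± 0.22), Tpm1 (tropomyosin) was lower by -1.53 ± 0.12 and Acta2 (smooth muscle actin) by -0.79 ± 0.14, at 1698 to 2151 CPM against 2933 to 4332 CPM. Tagln (SM22) differed by -0.34 ± 0.26 (adjusted p = 0.29), and its exons overlap Pcsk7 on the other strand. The summed smooth muscle level was 4893 to 5596 CPM in chondrocyte libraries and 8755 to 11755 CPM in osteoblast libraries.

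Of the neural crest genes, 5 of 15 tested were higher and 7 lower, against 28.6% and 31.1% of all genes, and Sox10, Foxd3, Pax7, Alx1 and Hand2 were at 0 in all 8 libraries. The mesenchymal homeobox gene Prrx1 was at 620 to 856 CPM against 1991 to 2847 CPM (-1.81 ± 0.14), and Tfap2a, an early crest regulator, was lower by -1.72 ± 0.10. Crabp1, a retinoic acid binding protein, was at 0.510 to 1.15 CPM in chondrocyte cultures, 8.37 to 40.7 CPM in osteoblast cultures and 2258 to 2465 CPM in proliferating cells. Nes (nestin), an intermediate filament of progenitors, was higher, at 17.5 to 59.1 CPM against 0.941 to 2.37 CPM (4.79 ± 0.44), as was the transcription factor Ets1 (2.39 ± 0.10).

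Markers of other cell types were then counted, in short lists, with 28.6% of all genes higher and 31.1% lower for comparison (32.9% and 34% without osteoblast replicate 4). Of 17 neuron and glia genes 12 had a count and 8 were tested, 3 higher and 1 lower, and their sum was 114.9 to 147.7 CPM in chondrocyte libraries against 36.5 to 49.3 CPM. Stmn2, a tubulin-binding protein best known from neurons, was at 46.9, 38.7, 39.4 and 40.6 CPM in chondrocyte cultures and at 0, 0.0818, 0 and 0.367 CPM in osteoblast cultures (8.41 ± 0.46, adjusted p = 1.3e-06), and Tubb3 (class III beta-tubulin) was higher by 4.26 ± 0.74. Leaving out osteoblast replicate 4, Tubb3 differed by 5.78, and Stmn2 rested on 2 osteoblast counts, too few for a fold. Sox10, Foxd3, Dct and Tyr of that list were at 0 in all 8 libraries. Of 10 endothelial genes 2 were tested and none called (sums of 13.9 to 25.2 against 8.77 to 24.0 CPM), while without osteoblast replicate 4 the count was 2 higher of 3 tested, and of 10 blood cell genes 2 were tested, 1 lower (sums of 3.06 to 4.40 against 3.72 to 4.87 CPM). Of 10 epithelial genes 2 were tested, with Krt14, a basal keratin, at 2.91 to 6.59 CPM against 0 to 0.0667 CPM, and the sum was 8.10 to 13.7 CPM in chondrocyte libraries, at most 1.48 CPM in osteoblast replicates 1 to 3 and 73.7 CPM in osteoblast replicate 4. Of 16 adipocyte genes 7 were tested, 1 higher and 3 lower (sums of 22.4 to 30.7 against 36.9 to 42.5 CPM, with Adipoq, Retn, Lep and Pck1 at 0). Of 18 skeletal muscle genes 5 were tested, none higher and 2 lower (sums of 5.97 to 7.11 against 8.22 to 13.1 CPM, with Myod1, Myog and Myf5 at 0), and of 10 tendon genes 6 were tested, 1 higher and 2 lower (2 and 1 without osteoblast replicate 4). The tendon list, which shares Fmod with the cartilage list, summed to 9213 to 12447 CPM in chondrocyte libraries and 7360 to 10985 CPM in osteoblast libraries. The part of these cell types in the differences above was not tested.

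The largest differences under the rule used to name genes (called, groups not overlapping, a mean of at least 10 counts in each group) led, after Ibsp and Col10a1, to genes of several kinds. Higher in chondrocyte cultures were Col7a1 (6.60 ± 0.24), the anchoring fibril collagen, at 165 to 251 CPM against 1.63 to 3.07 CPM, and Pkp1 (plakophilin 1, of desmosomes; 6.08 ± 0.42, and 6.73 without osteoblast replicate 4), at 261 to 289 CPM against 2.08 to 8.20 CPM. Slc7a11, the cystine importer, was at 55.3 to 86.2 CPM against 0.982 to 1.27 CPM (5.92 ± 0.17, adjusted p = 3.5e-08), with all 4 osteoblast libraries alike. The other 5 were the kinesin Kif21b, Srpx2, the collagen galactosyltransferase Colgalt2, the cGMP-dependent kinase Prkg2, which acts in growth plate cartilage, and Sorbs2, at 5.40 to 6.45 with 8 libraries and 5.76 to 8.25 without osteoblast replicate 4, the highest of these being Kif21b.

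Lower in chondrocyte cultures were Fam107a (-7.01 ± 0.36), a gene induced by glucocorticoids and stress, at 0.765 to 2.43 CPM against 114 to 190 CPM, and Col23a1, a transmembrane collagen (-6.74 ± 0.51). Aldh1a7, an aldehyde dehydrogenase, was at 2.42, 3.75, 3.17 and 20.4 CPM against 685, 657, 688 and 359 CPM (-6.33 ± 0.78), and chondrocyte replicate 4 and osteoblast replicate 4 each lay nearest the other group. Fmo2, a flavin-containing monooxygenase, was at 1.05 to 4.04 CPM against 117 to 169 CPM (-5.66 ± 0.36). Also among these genes were Acsl6, Pgm5, Sema3g, the angiotensin receptor Agtr2 and Ramp2, at -6.34 to -5.70. In Ramp2, a co-receptor for adrenomedullin, osteoblast replicate 4 was the highest library, at 98.4 CPM against 35.5 to 37.8 CPM in replicates 1 to 3.

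Osteoblast replicate 4 differed from replicates 1 to 3 in both directions. It was over 2-fold above the highest of them in 230 of 8627 genes compared and over 2-fold below the lowest in 158 of 8407. Among genes called without it with a difference of at least 1 on the log2 scale, its position was measured between the mean of osteoblast replicates 1 to 3 (set to 0) and the chondrocyte mean (set to 1). Its median position was 0.234 (quartiles 0.0209 and 0.501) in the 1844 genes higher in chondrocyte cultures and 0.259 (quartiles 0.0464 and 0.462) in the 1995 genes lower. It lay beyond the chondrocyte mean in 106 and 54 genes and on the far side of the osteoblast mean in 394 and 426. Several of its highest genes were above both groups: Krt15, an epithelial keratin, was at 32.5 CPM against at most 1.27 CPM in the other 7 libraries, Krt19 at 73.6 CPM against at most 6.53 CPM, the chemokine gene Cxcl14 at 44.9 CPM against at most 4.21 CPM, and Stard8 at 11.6 CPM against at most 0.613 CPM. Krt15 was 76.8 times, Krt19 56.2 times and Nog 42.7 times above the highest of osteoblast replicates 1 to 3. Without that library, Krt19 and Cxcl14 were higher in chondrocyte cultures (1.98 and 1.10, adjusted p = 7.9e-06 and 0.00068), and with it their differences were -1.93 and -1.77 (adjusted p = 0.25 and 0.21).

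Others of its highest genes lay toward the chondrocyte level, as given above for Sp7, Igfbp5, Wif1 and Col2a1. Its lowest genes relative to replicates 1 to 3 were Osbp2 (10.2 times below), Clic5 (8.61), Pamr1 (5.33), Fgf18 (4.84) and Adamts5 (4.59). For Osbp2, an oxysterol binding protein, and Clic5, a chloride channel protein, it was close to the chondrocyte range, with 2.27 and 1.83 CPM against 0.956 to 2.20 and 0.825 to 1.27 CPM. For mitosis genes it summed to 166 CPM, against 110 to 119 CPM in replicates 1 to 3 and 797 to 1352 CPM in chondrocyte libraries. What set this library apart was not tested.

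**Figure D3:**
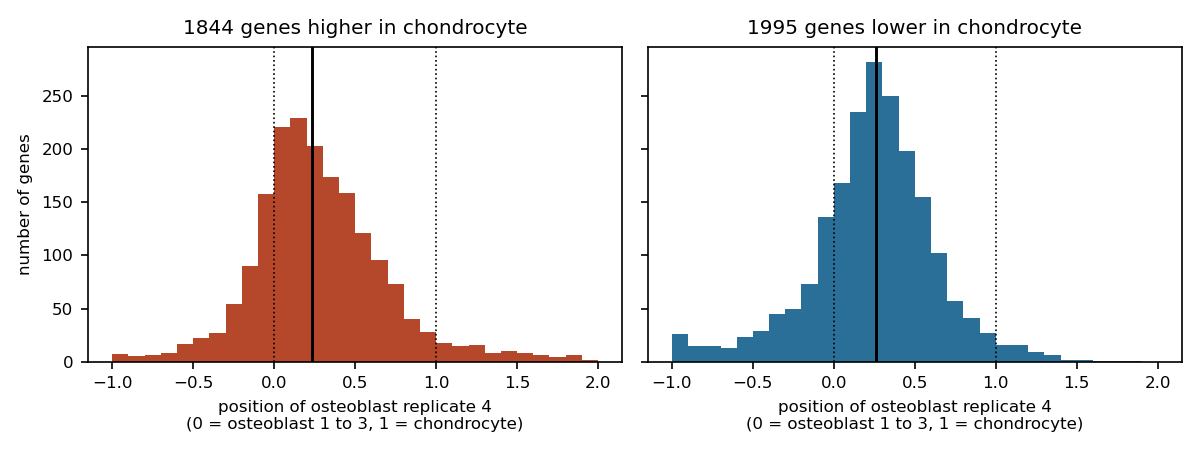
Position of osteoblast replicate 4 for genes that differed by at least 1 on the log2 scale without it, on an axis from the mean of osteoblast replicates 1 to 3 (0) to the chondrocyte mean (1), with values beyond the axis ends counted in the outermost bars. The solid lines mark the medians, 0.234 for the 1844 genes higher in chondrocyte cultures and 0.259 for the 1995 lower, so both medians lie nearer the osteoblast end.

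The same contrast at 0.5% O2 used 6 other libraries, 3 of each culture, and called 8137 of 14116 genes (57.6%), 28.6% higher in chondrocyte cultures and 29% lower, the shares against which the list counts at 0.5% O2 are to be read. Of 13703 genes tested at both oxygen levels, 8232 were called at 21% O2, and 4570 of these were called in the same direction at 0.5% O2 and 773 in the opposite one. Of the 3068 with a log2 difference of at least 1 at 21% O2, 1943 were called the same way at 0.5% O2, 196 the opposite way and 929 were not called. The change of the difference itself with oxygen (an interaction term over all 14 libraries) was called for 5750 of 15199 genes (37.8%), and for 6725 (44.5%) without normoxic osteoblast replicate 4.

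**Figure D4:**
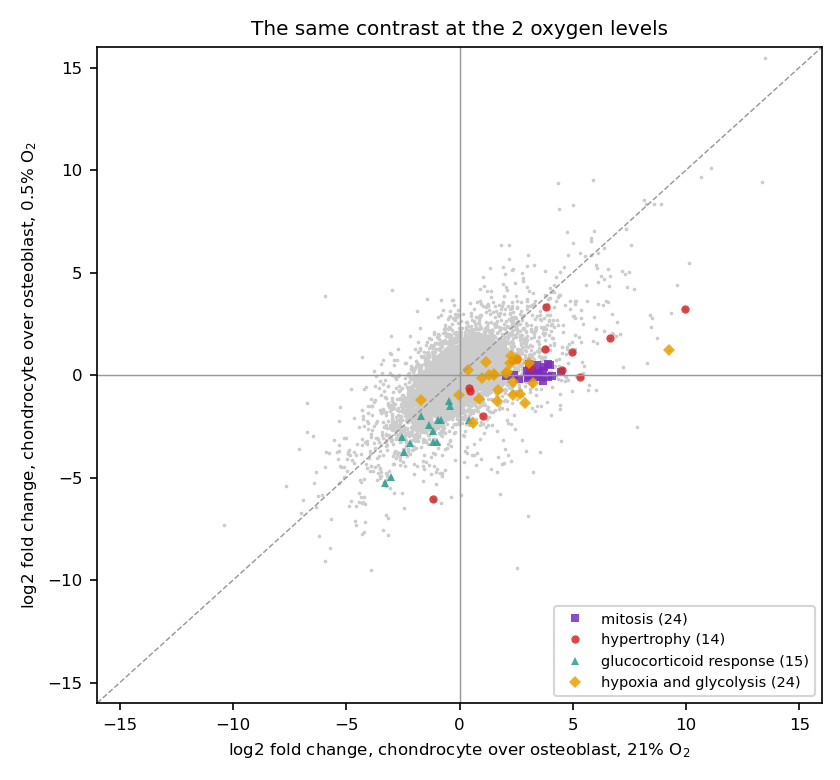
Log2 fold change of chondrocyte over osteoblast cultures at 21% O2 (x axis) and at 0.5% O2 (y axis) for each gene tested at both (grey), with 4 gene lists in colour and the dashed line marking equal values. The 24 mitosis genes lie near 0 on the y axis (median 0.08) although their median on the x axis is 3.39, and the glucocorticoid response genes are below 0 on both axes apart from Ddit4, at 0.40 on the x axis.

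Of the mitosis genes at 0.5% O2, 4 of 24 were higher in chondrocyte cultures and none lower, against 28.6% and 29% of all genes, with a median of 0.08. The interaction was called in all 24, against 37.8% of all genes. Mki67 differed by -0.28 there (adjusted p = 0.067), an interaction of -4.0. Of the hypoxia and glycolysis genes, 7 of 24 were higher and 10 lower at 0.5% O2, against 28.6% and 29% of all genes. The interaction was called in 20 of 24, against 37.8% of all genes. Vegfa remained higher by 0.79 and Car12 by 1.21, with interactions of -1.76 and -8.06. Of the hypertrophy list, 7 of 14 genes were higher and 4 lower, against 28.6% and 29% of all genes. Interactions were called in 12, against 37.8% of all genes (14 without normoxic osteoblast replicate 4, against 44.5%). Ibsp differed by 3.23 and Col10a1 by 1.82 at 0.5% O2, Alpl by 0.27 (adjusted p = 0.23), Dmp1 by -0.11 (adjusted p = 0.79), Spp1 by -2.0 and Mmp13 by -6.03. Osteoblast markers at 0.5% O2 stood at 8 higher and 8 lower of 23 tested, against 28.6% and 29% of all genes, with a median of -0.08.

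Glucocorticoid response genes were lower in all 15 tested at 0.5% O2, against 29% of all genes, with a median of -2.72 against -1.19 at 21% O2. The interaction was called in 12 of 16, against 37.8% of all genes. Of the cartilage matrix genes, 8 of 12 tested were higher and 3 lower, against 28.6% and 29% of all genes. Interactions were called in 5 of 15, near the 37.8% of all genes. At 0.5% O2 Acan was higher by 0.86 (interaction -2.74), Hapln1 by 2.87 and Col2a1 by 1.96, and Col9a1 was lower by -3.72. The interactions for Hapln1 (-2.16, adjusted p = 0.2) and Col2a1 (-2.02, adjusted p = 0.33) were not called. Without normoxic osteoblast replicate 4 they were (-4.07 and -4.52, adjusted p = 0.00051 and 0.0013), Acan stood at -3.51 and interactions were called in 11 of 15 genes of the list, against 44.5% of all genes. Type I collagen kept its direction, with Col1a1 at 2.23 and Col1a2 at 1.43, as did Ogn at -4.11, Cd34 at -4.44 and Gas1 at -3.73. The BMP response list was lower in 12 of 17 and higher in none at 0.5% O2, against 29% and 28.6% of all genes. At 21% O2 it was 3 higher and 3 lower with all libraries, against 28.6% and 31.1% of all genes. Without osteoblast replicate 4 it was 13 higher and 3 lower, against 32.9% and 34%. The interaction was called in 5 of 17, against 37.8% of all genes, and without that library in 15 of 17, against 44.5%.

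Among genes with a mean of at least 10 counts in each of the 4 groups, which leaves out Car12, the largest positive interactions were in Fgf18 (5.14), Adra2a (4.11) and Slc4a11 (4.05). Fgf18, a growth factor of bone and cartilage, was lower in chondrocyte cultures by -4.29 ± 0.55 at 21% O2, at 0.495 to 1.05 CPM against 19.4, 17.5, 17.3 and 3.57 CPM, and differed by 0.87 (adjusted p = 0.081) at 0.5% O2. Adra2a, an adrenergic receptor, went from -3.37 ± 0.33 to 0.76. The largest negative ones were in Ibsp (-6.74), H19 (-6.66) and Slc36a2 (-6.46). H19, an imprinted noncoding RNA, was at 692 to 879 CPM in chondrocyte cultures against 29.4, 28.1, 30.2 and 328 CPM at 21% O2, a difference of 2.93 ± 0.90 (4.76 without osteoblast replicate 4, and not called with no filter on low counts, adjusted p = 0.0686). At 0.5% O2 the H19 difference was -3.70. Without normoxic osteoblast replicate 4 the interactions were -8.47 for H19, -8.12 for Ibsp and -7.28 for Slc36a2, so H19 then passed Ibsp, and they were 5.47, 4.36 and 4.17 for Fgf18, Adra2a and Slc4a11. Slc36a2, an amino acid transporter, was at 2.31 to 5.13 CPM against 0.423 to 1.90 CPM and differed by -4.17 at 0.5% O2.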

How the data were processed

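The authors deposited a table of raw counts of reads per Ensembl gene for the 28 libraries, made from polyadenylated RNA with a stranded kit, per the labels. The submitters' processing notes name HISAT2 2.0.5, StringTie 1.3.3b, featureCounts 1.5.0-p3 and the build mm10. The annotation, the strand setting of the counting and any filter are not given in the sources used here. Columns were matched to samples by the names in the labels, with 0 columns left over. Positions and symbols come from GENCODE M21 on GRCm38, which held 54314 of the 54429 identifiers (99.8%), and 23978 genes had a count in the 8 libraries. The deposited tables of the authors' own comparisons do not pair these groups and were not used.

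Genes were filtered with filterByExpr (minimum count 10, total 15), scaled by TMM and tested two-sided with edgeR 4.0.16 (robust quasi-likelihood test, R 4.3.3) on the 8 libraries alone, with Benjamini-Hochberg adjustment and a threshold of 0.05. Levels at 0.5% O2 and in proliferating cells are on a scale computed over 18 libraries. Named genes were the members of 31 gene lists (536 genes, 428 tested) and, by rule, the largest differences, the most abundant genes with a log2 difference of at least 2, those where osteoblast replicate 4 stood farthest from replicates 1 to 3, and the largest interactions, passing over predicted genes, and a few genes so named are not reported here. The comparison, the members and the lists were chosen with earlier results of these data known. The procedure was tested on simulated counts. Alternatives were limma-voom (limma 3.58.1), DESeq2 1.42.0, other scaling, other filters, a fit over all 16 libraries at 21% O2, a replicate block and leaving out each library. Replicates differed by more than counting noise in every pair, so none was merged, but by unlike amounts. The mean chi-square per gene between 2 libraries was 2.908 to 3.902 among osteoblast replicates 1 to 3. It was 93.19 to 99.81 between each of these and replicate 4, and 8.658 to 37.36 among chondrocyte libraries. Exons of 7 named genes (Adamts4, Ccnd1, Cdc20, Cdkn1c, Fdft1, Slc20a2 and Tagln) overlap a gene on the other strand with at least 10% of their counts, and as the use of strand in counting is not given these counts are uncertain. CPM per kilobase divides by the summed exon length in that annotation.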

Additional observations from a re-analysis of the deposited data

Results flagged for a closer look

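Within each group of 4 libraries, a library was marked where its gap to the nearest other library took up more of the group's range in CPM than Dixon's 95% value for 4 samples allows, which chance alone does in about 1 in 20 groups. Among the 175 genes named here, and so 350 groups, 117 were marked, 100 of them for osteoblast replicate 4 (63 as the highest library and 37 as the lowest). Chondrocyte replicates 4, 1 and 3 had 8, 7 and 1, and osteoblast replicate 3 had 1. Some of these genes were named because osteoblast replicate 4 stood out in them, so the counts are no measure of how often it does.

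The highest library was osteoblast replicate 4, in CPM, for Col2a1 at 807, Acan at 385, Hapln1 at 63, Col9a1 at 110, Col9a2 at 51.4, Col11a2 at 36.4, Fmod at 332, Sox9 at 201, Wwp2 at 119, Nkx3-2 at 0.2, Col10a1 at 9.73, Ibsp at 3.33 and Sp7 at 47.2. It was likewise the highest of its group for Alpl at 41.6, Pth1r at 30, Panx3 at 3.23, Runx3 at 27.9, Bglap at 0.467, Dlx5 at 25.6, Omd at 452, Col1a1 at 9656, Col1a2 at 12520, Fbln2 at 665, Eln at 87.7, Dcn at 50.3 and Sdc3 at 306. The same held for Timp1 at 48.4, Acta2 at 4332, Tagln at 526, Tubb3 at 9.93, Krt14 at 0.0667, Krt19 at 73.6, Id3 at 395, Nog at 78.2, Grem1 at 949, Hey1 at 91, Ccn2 at 1120 and Tgfbi at 334. Also highest in that library were Igf2 at 2.3, Igfbp5 at 31.8, Ccn4 at 90.6, Wif1 at 47.7, Boc at 421, Ube2c at 3, Top2a at 29.2, Kif11 at 7.27, Rrm2 at 38.6, Mcm5 at 19.9, Cdkn1c at 143, Ldha at 324 and P4ha1 at 195. Further genes with that library on top were Serpinh1 at 1752, Hspa5 at 1470, Kif21b at 1.97, Pkp1 at 8.2, Prkg2 at 3.67, Sorbs2 at 3.4, Ramp2 at 98.4, Krt15 at 32.5, Cxcl14 at 44.9, Stard8 at 11.6, H19 at 328 and Slc36a2 at 1.9.

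Osteoblast replicate 4 was marked as the lowest of its group, in CPM, for Col11a1 at 1509, Arid5b at 186, Ogn at 4073, Aspn at 3481, Gas1 at 1203, Penk at 738, Ptn at 749, Pdgfra at 723, Itga8 at 576, Adgra2 at 702, Adamts5 at 11.4, Timp2 at 2099 and Htra1 at 563. So it was for Mmp14 at 858, Mylk at 153, Prrx1 at 1991, Crabp1 at 8.37, Insr at 58.8, Fth1 at 1018, Tsc22d3 at 1098, Errfi1 at 293, Sfrp1 at 154, Dkk3 at 309, Ccnd1 at 101, Fdft1 at 135 and Fasn at 191. The remaining genes low in it were Bst2 at 15.6, Fam107a at 114, Col23a1 at 39.2, Aldh1a7 at 359, Sema3g at 122, Agtr2 at 9.17, Fmo2 at 117, Clic5 at 1.83, Pamr1 at 2.47, Fgf18 at 3.57 and Adra2a at 151.

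Chondrocyte replicate 1 was the highest of its group for Slc20a1 at 122 and Txnrd1 at 233 CPM. Chondrocyte replicate 1 was the lowest of its group for Penk at 47.5, Pdgfra at 84.3, Tgfbr3 at 5.51, Hk2 at 62.3 and Egln3 at 65 CPM. Chondrocyte replicate 3 was the highest of its group for Cytl1 at 0.0361 CPM. Chondrocyte replicate 4 was the highest of its group for Omd at 109, Aspn at 898, Trib3 at 177, Sorbs2 at 79.7, Aldh1a7 at 20.4 and Agtr2 at 1.79 CPM. Chondrocyte replicate 4 was the lowest of its group for Sdc3 at 1424 and Ccnb1 at 36.9 CPM. Osteoblast replicate 3 was the highest of its group for Foxm1 at 13.7 CPM.

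The change with oxygen of the difference between chondrocyte and osteoblast cultures is listed for 15 of the named genes, by the interaction term over 14 libraries (log2 difference at 0.5% O2 minus that at 21% O2). Fgf18, Adra2a, Slc4a11, Ibsp, H19 and Slc36a2 were named for the size of this term, so their calls were fixed by that choice. The interaction was called in 37.8% of all genes and in other named genes too, so 15 is no count of such changes. It was positive in Fgf18 (5.14), Adra2a (4.11) and Slc4a11 (4.05) and negative in Ibsp (-6.74), H19 (-6.66), Slc36a2 (-6.46), Col10a1 (-4.84), Alpl (-4.26), Dmp1 (-5.43), Acan (-2.74), Mki67 (-4.0), Mmp13 (-4.86), Vegfa (-1.76), Car12 (-8.06) and Stmn2 (-5.51). Without normoxic osteoblast replicate 4 the interaction was more negative in Ibsp (-8.12), H19 (-8.47), Slc36a2 (-7.28), Col10a1 (-5.90), Alpl (-6.91) and Acan (-3.51). The shift was over 1.5-fold in each once the log2 values were turned back into folds. Stmn2 then rested on 2 counts in normoxic osteoblast cultures, too few for a value, and the other 8 of these genes kept their sign.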

How the results depend on the processing

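The number of genes called, 8546, ranged from 7640 (at least 10 counts in every library) to 9510 (all 16 libraries at 21% O2 in one fit) over the settings that kept all 8 libraries, with 8609 by limma-voom, 8792 by DESeq2, 8726 with total count scaling and 8676 with no filter. Leaving out 1 library gave 7657 to 9736, with 9736 for osteoblast replicate 4. The count with a log2 difference of at least 1, 3378, ranged from 2425 to 3997. At 0.5% O2 the count of 8137 ranged from 7187 to 8181, and the interaction count of 5750 from 5614 to 6725. No pairing of libraries by replicate number was seen: deviations of same-numbered libraries from their group means correlated at -0.122, -0.014, -0.043 and -0.239. Osteoblast replicate 4 stood so far from its group that it set much of these deviations, so they could hardly show a pairing of replicates 1 to 3. The fit with the replicate number as a block called 7698 genes. Under the block Axin2, Postn and Ifi44 were no longer called, and with no filter Col2a1, Sp7, Dlx5, Igfbp5 and H19 were not (adjusted p from 0.0639 to 0.0945). Of the 174 named genes tested, 140 kept their direction and their side of the threshold in every setting tried. Leaving out osteoblast replicate 4 reversed Krt19 (1.98, against -1.93), Nog (1.92, against -1.96) and Cxcl14 (1.10, against -1.77), and on leaving out each library in turn these genes spanned -2.32 to 1.98, -2.35 to 1.92 and -2.14 to 1.10. It also brought Bglap, Eln, Hey1, Hspa5, Id1, Id3, Mmp14, Tnfrsf11b, Col9a1, Col9a2, Sox9, Tgfbi and Wif1 past the threshold. Adm, Ccnd1 and Dcn were called without chondrocyte replicate 1, and Stard8 without any 1 of osteoblast replicates 1 to 3. Clic5 and Osbp2 were not called by limma-voom. Genes under 1 CPM in both groups rest on few counts, and differences there are less precise.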
